A study of Homo sapiens with 16 samples.

Results

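In some line, 13477 protein-coding genes had a level of at least 1 RPM with 0.1 added. Of these, 26 (0.193%) differed at least 2 times from every control line in both AJUBA knockdown lines of SW480. SW480 is a widely used human cell line that was derived from a colon adenocarcinoma. Levels are in RPM, counts scaled to a total of 1e6 in each sample. The members were chosen on line means of RPM plus 0.1. Both the shAjuba1 and the shAjuba2 mean had to be at least 2 times the highest, or at most 1/2 of the lowest, of the Parental, shScrambled and Control means, and the highest of the 6 line means had to reach 1. PRSS2 reached that level only in Ajuba OE, and CALB2 and SOX18 only in the knockdown lines. KRTAP2-4 reached it only in shAjuba1 and only with the 0.1 added (mean of 0.909 RPM). Of the 26, 7 genes were higher in both knockdown lines (0.0519%) and 19 were lower (0.141%). The genes AMOTL1, CDH11 and PCDH19, were left out of the choice. Since the knockdown and control values chose the members, their differences are given below as a description and carry no test.

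AJUBA is an adaptor protein with LIM domains, zinc-binding modules through which proteins dock on each other. It shuttles between cell junctions and the nucleus. It is known to bind the LATS kinases of the Hippo pathway, which restrain the coactivators YAP and TAZ, and to act as a corepressor with Snail, a repressor that binds E-box sequences in promoters of epithelial genes. In epithelia these pathways bear on cell-cell cohesion and growth, and the study asked what AJUBA does in the growth and spread of colon cancer.

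RNA was sequenced from 6 lines. Parental cells were not modified (n = 2), and shScrambled carried a non-mammalian control shRNA (n = 2). The knockdown lines carried an shRNA against the coding region of AJUBA (shAjuba1, n = 3) or against its non-coding region (shAjuba2, n = 3). Ajuba OE carried a lentiviral AJUBA construct named for a CMV promoter, a FLAG-HA tag and puromycin resistance (n = 3), and Control carried the same construct with the AJUBA insert excised (n = 3). The transduced lines were selected with puromycin, and Parental cells are the only line without a virus. Each knockdown is represented by a single line, so the effect of an shRNA and of its line cannot be told apart. The study describes the replicates as technical, so the p-values below measure only the spread between these samples.

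Total counts were 30132396 to 69684675 per sample. Replicates of a line differed by 1.87 to 14.3 times the counting noise (median chi-square ratio over genes), so every pair differed by more than counting alone. Whether a pair came from 1 library cannot be told from this ratio. Replicate 2 of Control, shAjuba2 and Ajuba OE stood furthest from the other samples of its line, with ratios of 6.31 to 14.3, against 4.39 to 5.19 for replicates 1 and 3 of these lines. Without replicate 2 of Control 10 genes were higher and 20 lower by the same rule, and without replicate 2 of shAjuba2 8 were higher and 15 lower. AJUBA itself is not a member. Its level was 88.8 and 91.6 RPM in Parental, 83.4 and 81.6 in shScrambled, and 89.6, 100.5 and 89.4 in Control. The shAjuba1 samples were at 49.6, 47.3 and 53.5 RPM and the shAjuba2 samples at 60.3, 68.6 and 57.1, whereas Ajuba OE reached 550, 462 and 566. All 6 knockdown samples lay below all 7 control samples, and the knockdown means were 1.65 and 1.33 times lower than the lowest control mean. Of 10 markers of colon epithelium, 7 were present in every line, among them KRT8, CDX2 (line means of 8.52 to 24.3 RPM) and VIL1 (11 to 55.4), whereas KRT20, LGALS4 and CEACAM5 stayed under 1 RPM. The markers present did not move together. EPCAM had line means of 73.4 and 69.8 RPM in the knockdown lines and of 121 to 145 in the control lines. VIL1 and CDX2 also lay below every control mean in both knockdown lines. KRT8, with 2380.1 and 2169.6 RPM, lay within the control means of 1930.1 to 3063.7, and KRT18 lay within its own. CDH1 and KRT19 lay within their control means in shAjuba1 and below them in shAjuba2.

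The members had lower levels than most genes. The median of the mean RPM over lines was 1.66 for the members higher in both knockdown lines and 5.66 for the members lower in both, beside 27.4 for all 13477 genes. Of the members, 8 of 26 stayed under 5 RPM in every line. Only 7 reached 10 RPM in some line. Per kilobase of exon, KRT13 had the highest mean level of the members with 59.7 RPM per kb, followed by MIA with 4.92, whereas EPPIN had the lowest with 0.144. In all 7 members higher and all 19 lower, no knockdown sample overlapped a control sample. Such a separation was seen upwards in 3.91% and downwards in 2.95% of the 13477 genes, and the rule nearly fixes it for members.

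**Figure D1:**
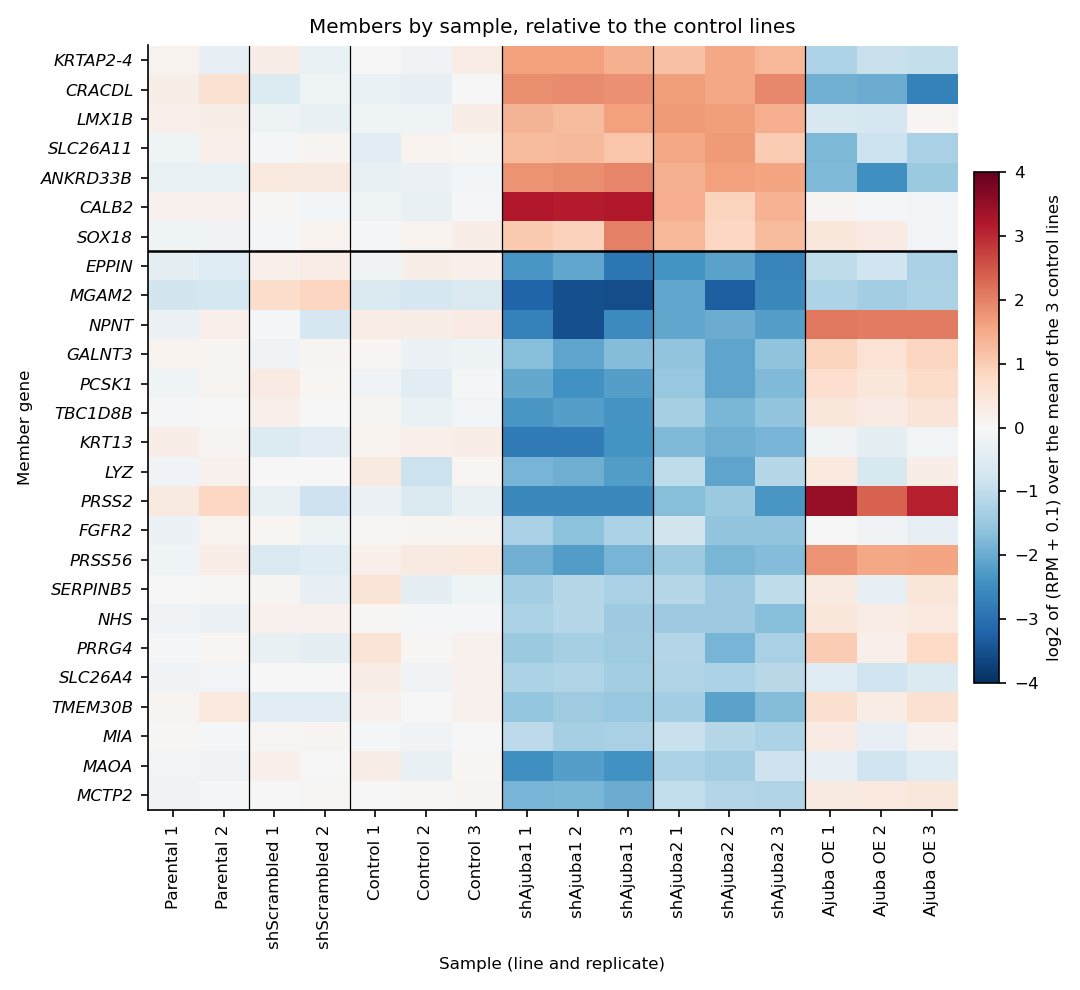
Each row is a member and each column a sample, grouped by line. The colour is the log2 of RPM + 0.1 over the mean of the 3 control lines, red for higher and blue for lower. The 7 members above the black line are red in all 6 knockdown samples and the 19 below it are blue, whereas the 3 Ajuba OE samples differ between members, from deep red in PRSS2 and NPNT to deep blue in CRACDL.

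The 7 members higher in both knockdown lines hold a pair of transcription factors, a calcium-binding protein, an anion transporter, an actin regulator's relative, a hair protein and ANKRD33B. They were assigned to these roles after their values were seen. LMX1B, a LIM-homeodomain factor that patterns the dorsal limb and is mutated in nail-patella syndrome, was at 1.73 to 2.60 RPM in the 7 control samples (median 1.92). It was at 5.72, 5.34 and 7.01 RPM in shAjuba1 and at 7.22, 7.07 and 6.07 in shAjuba2. Both knockdown lines were thus alike for LMX1B, 2.31 and 2.59 times above the nearest control mean. SOX18, a factor of endothelial and lymphatic development, was at 0.374 to 0.546 RPM in the control samples and at 0.856 to 2.10 in the knockdown samples. Its highest value came from replicate 3 of shAjuba1, and without that sample, as without replicate 1 or 3 of shAjuba2 or replicate 1 of Control, the gene is no longer a member. Of the endothelial markers, PECAM1 had line means of 0.487 and 0.471 RPM in the knockdown lines and of 0.0771 to 0.0993 in the control lines. VWF, the most abundant of them, lay on the other side, with 2.11 and 2.22 RPM against 2.25 to 5.13. CDH5 and KDR had line means of at most 0.0212, TEK of at most 0.187 and CLDN5 of at most 0.229. VWF makes up most of their sum. The summed level of the 6 endothelial markers was 2.53 to 3.39 RPM in the knockdown samples and 2.46 to 5.66 in the control samples, and their part in the SOX18 values was not tested.

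CALB2 encodes calretinin, an EF-hand protein that binds calcium. It had the largest difference between the knockdown lines of any member. The control samples lay between 0.388 and 0.579 RPM (median 0.478), the shAjuba1 samples at 5.46, 5.24 and 5.47, and the shAjuba2 samples at 1.55, 1.01 and 1.48. The mean was 8.12 times the nearest control mean in shAjuba1 and 2.14 times in shAjuba2. Its relatives were not members: CALB1 (calbindin) had line means of 1.29 and 0.876 RPM in the knockdown lines and of 0.122 to 0.704 in the control lines.

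CRACDL is named for its likeness to CRACD, which regulates actin by inhibiting capping protein. CRACDL was at 0.686 to 1.64 RPM in the control samples, at 4.08, 4.12 and 4.0 in shAjuba1 and at 3.55, 3.22 and 4.24 in shAjuba2. ANKRD33B, an ankyrin repeat protein, was at 2.39 to 3.92 RPM in the control samples, at 10.5, 10.9 and 11.6 in shAjuba1 and at 8.13, 9.48 and 8.93 in shAjuba2. ANKRD33B had the highest level of the 7, and its control lines were spread 1.57 times, with shScrambled highest. CRACD itself had line means of 10.8 and 15.5 RPM in the knockdown lines and 14.1 to 18.5 in the control lines.

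SLC26A11 transports sulfate and other anions. It was at 0.816 to 1.34 RPM in the control samples, at 2.87, 2.95 and 2.59 in shAjuba1 and at 3.55, 3.92 and 2.41 in shAjuba2. SGSH, a lysosomal sulfatase gene, overlaps it on the opposite strand and was higher in the same samples, with line means of 5.85 and 6.51 RPM in the knockdown lines and of 3.14 to 4.17 in the control lines. The strand setting of the counting is not given in the sources used here, so reads of the pair may have been shared. KRTAP2-4, a keratin-associated protein of the hair shaft, was the faintest of the 7. Its control samples were at 0.168 to 0.319 RPM, those of shAjuba1 at 0.963, 0.962 and 0.80, and those of shAjuba2 at 0.666, 0.878 and 0.741. Its near-identical neighbour KRTAP2-3, 5.00 kb away, had line means of 4.60 and 5.51 RPM in the knockdown lines and of 3.87 to 4.88 in the control lines, and the assignment of reads between them is uncertain.

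Of the 19 members lower in both knockdown lines, 7 are secreted or act in the secretory granule, and 3 of these 7 are proteases. The roles were assigned by hand after the values were seen, and their share among all genes was not determined. Where a cell type makes such proteins, fewer of its cells and less RNA per cell cannot be told apart in a bulk sample.

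NPNT encodes nephronectin, a matrix protein that binds integrin α8β1. Its control samples were at 1.09 to 2.28 RPM (median 2.07), those of shAjuba1 at 0.188, 0.0664 and 0.221, and those of shAjuba2 at 0.344, 0.383 and 0.309. The means were 5.79 and 3.36 times lower than the nearest control mean. INTS12 overlaps NPNT on the opposite strand, with line means of 12.2 to 15.0 RPM over the 6 lines. PRSS2, trypsinogen 2, was at 0.239 to 0.970 RPM in the control samples. It had 0 counts in all 3 shAjuba1 samples, and 4, 5 and 1 counts in those of shAjuba2 (0.0860, 0.113 and 0.0206 RPM). Against a floor of 3 counts per sample, the shAjuba1 mean was at least 3.81-fold lower than the lowest control mean. The trypsinogens are near-identical copies, so the PRSS2 counts are uncertain. PRSS1 had at most 1 count in any sample, whereas PRSS3 had line means of 11.8 and 8.15 RPM in the knockdown lines and 6.29 to 10.3 in the control lines.

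PRSS56 is a trypsin-like protease known from eye growth. Its control samples were at 2.85 to 5.71 RPM (median 4.95), those of shAjuba1 at 1.07, 0.830 and 1.1, and those of shAjuba2 at 1.50, 1.15 and 1.23. PCSK1 encodes prohormone convertase 1, which cleaves hormone precursors in neuroendocrine granules. It was at 2.92 to 4.96 RPM in the control samples, at 0.879, 0.664 and 0.773 in shAjuba1 and at 1.33, 0.833 and 1.09 in shAjuba2. Of other granule genes, CHGA, CHGB, SCG2 and SCG3 lay below every control mean in both knockdown lines. Chromogranin A (CHGA) had line means of 6.78 and 5.01 RPM in the knockdown lines and 9.64 to 13.8 in the control lines. CHGB had 6.51 and 5.22 RPM against 9.34 to 12.7. SCG2 had 0.193 and 0.301 against 0.567 to 1.48, and SCG3 had 1.85 and 3.57 against 6.88 to 8.66. SCG5 and CPE, under 1 RPM in every line, lay within their control means in shAjuba2. In shAjuba1 SCG5 lay below its control means and CPE above. PCSK1N, whose product inhibits PCSK1, had 5.85 and 5.75 RPM against 2.63 to 4.46. PCSK2 was nearly absent, with at most 2 counts in a sample.

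EPPIN, an epididymal protease inhibitor that coats sperm, was at 0.989 to 1.79 RPM in the control samples and at 0.110 to 0.265 in the knockdown samples. Its means were 3.83 times lower than the nearest control mean in both lines. In the inhibitor cluster around it on chromosome 20, WFDC2 had line means of 7.18 and 8.63 RPM in the knockdown lines and 14.8 to 25.0 in the control lines. The fainter WFDC8, with 0.0906 and 0.138 against 0.377 to 0.778 RPM, and WFDC9, with 0.191 and 0.232 against 0.385 to 0.542, were also lower. WFDC3, with 5.41 and 3.19 against 3.13 to 5.93 RPM, and SLPI, with 2.04 and 1.90 against 0.940 to 3.86, overlapped the control lines. So did WFDC10B and WFDC13, both under 1 RPM. The readthrough gene EPPIN-WFDC6 overlaps EPPIN on the same strand and had at most 11 counts in a sample. LYZ is lysozyme, a product of Paneth cells and of blood phagocytes. It was at 1.69 to 4.02 RPM in the control samples, at 0.795, 0.730 and 0.580 in shAjuba1 and at 1.50, 0.653 and 1.36 in shAjuba2. The blood markers PTPRC and HBB had line means of at most 0.0434 RPM. The line means of the 5 blood markers other than LYZ summed to 0.853 and 1.62 RPM in the knockdown lines and to 0.900 to 1.82 in the control lines. MIA, a small secreted protein first described in melanoma, was at 6.26 to 7.43 RPM in the control samples and at 2.72 to 3.70 in the knockdown samples, and the readthrough gene MIA-RAB4B overlaps it on the same strand.

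Glycan enzymes and membrane proteins formed the next group. GALNT3 starts mucin-type O-glycosylation and is known for protecting FGF23 from cleavage. It was at 1.73 to 2.27 RPM in the control samples, at 0.565, 0.398 and 0.552 in shAjuba1 and at 0.623, 0.405 and 0.617 in shAjuba2. The means were 3.32 and 3.09 times lower than the nearest control mean. Of 17 further GALNT genes, 13 had a level of at least 1 RPM and none was a member. The most abundant of them, GALNT6, had line means of 51.1 and 69.2 RPM in the knockdown lines and 81.1 to 107 in the control lines. MGAM2, a relative of the intestinal maltase-glucoamylase, was at 1.94 to 2.18 RPM in Parental and Control and at 5.49 and 6.10 in shScrambled. It was at 0.272, 0.199 and 0.193 RPM in shAjuba1 and at 0.709, 0.248 and 0.473 in shAjuba2. The intestinal enzymes MGAM and SI were at or near 0, with at most 7 counts in a sample.

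SLC26A4 encodes pendrin, which exchanges chloride for iodide or bicarbonate. It was at 6.81 to 9.12 RPM in the control samples and at 2.84 to 3.48 in the knockdown samples. The antisense RNA SLC26A4-AS1, on the opposite strand, was also lower, with line means of 1.65 and 1.28 RPM in the knockdown lines and 2.96 to 3.68 in the control lines. The family thus gave a member in each direction, SLC26A11 and SLC26A4. FGFR2, a receptor tyrosine kinase whose epithelial form answers to FGF7 and FGF10, was at 7.13 to 9.42 RPM in the control samples and at 2.65 to 5.05 in the knockdown samples. ESRP1, the splicing factor that makes the epithelial FGFR2 form, missed the limit of 2 narrowly, with line means of 7.41 and 13.9 RPM in the knockdown lines and of 27.6 to 43.4 in the control lines. FGFR1, FGFR3 and FGFR4 were not members. FGF10 had no count in any sample and FGF7 at most 2.

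TMEM30B is the subunit that carries phospholipid flippases to the cell surface. It was at 4.88 to 8.88 RPM in the control samples and at 1.46 to 2.60 in the knockdown samples, and PRKCH overlaps it on the opposite strand, with line means of 1.87 and 1.77 RPM in the knockdown lines and of 3.34 to 3.65 in the control lines. TMEM30A, the common form, had line means of 79.0 and 94.3 RPM in the knockdown lines and 97.7 to 110 in the control lines. PRRG4, a transmembrane protein with a Gla domain, was at 9.56 to 17.7 RPM in the control samples and at 3.29 to 5.40 in the knockdown samples. MCTP2, a membrane protein with calcium-binding C2 domains, was at 3.89 to 4.62 RPM in the control samples, at 1.11, 1.13 and 0.994 in shAjuba1 and at 2.13, 1.85 and 1.81 in shAjuba2.

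Inside the cell, KRT13 had the highest level of all members. It is a type I keratin of stratified, non-cornified epithelium. The control samples were at 167 to 293 RPM (median 265), with both shScrambled samples lowest. The shAjuba1 samples were at 35.1, 34.5 and 46.3 RPM, and those of shAjuba2 at 70.5, 62.5 and 66.8. The means were 4.46 and 2.59 times lower than the nearest control mean. No other keratin was a member. KRT15, its neighbour on chromosome 17, had line means of 30.5 and 27.0 RPM in the knockdown lines and of 35.3 to 58.7 in the control lines.

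TBC1D8B, a TBC domain protein that regulates Rab GTPases of vesicle traffic, was at 8.77 to 12.2 RPM in the control samples, at 2.05, 2.26 and 2.01 in shAjuba1 and at 4.17, 2.95 and 3.54 in shAjuba2. MORC4, on the opposite strand, overlaps it and had line means of 23.9 and 26.4 RPM in the knockdown lines and of 37.1 to 41.7 in the control lines. MAOA, monoamine oxidase A, which breaks down serotonin and noradrenaline at the mitochondrion, was at 13.4 to 19.8 RPM in the control samples, at 2.97, 3.55 and 3.01 in shAjuba1 and at 6.88, 6.24 and 9.26 in shAjuba2. Its tandem relative MAOB, 19.8 kb away, had 24.4 and 25.5 RPM in the knockdown lines and 35.7 to 46.9 in the control lines. NHS, an actin-remodelling protein lost in Nance-Horan syndrome, was at 13.0 to 17.4 RPM in the control samples and at 4.59 to 6.94 in the knockdown samples. SERPINB5 (maspin), an epithelial serpin without protease-inhibiting activity, was at 6.14 to 11.4 RPM in the control samples and at 2.79 to 3.85 in the knockdown samples.

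Promoters were read from RefSeq on GRCh38.p14, as the 250 bases before the first start listed for a gene, and 21 of the 26 members had an entry. The 6 letters CACCTG, the E-box that Snail factors bind, were found on either strand in 6 of 17 promoters of members lower in both knockdown lines (35.29%) and in 1 of 4 of those higher, beside 16.43% of 10890 promoters of all genes of this level. The TEAD core GGAATG was in 1 of 21 member promoters, beside 9.522% of all. The TCF core CTTTGAT was in 2 of 21, beside 1.221%, and the AP-1 site TGANTCA in 2 of 21, beside 3.994%. These matches are a description of letters and were not tested, and none of the motifs overlaps another in the promoters shown. The median GC content was 63.2% in the members and 65.2% in all promoters. The promoters of 4 lower members are printed because they hold these letters, in capitals, and because their RefSeq start is also the first base of the gene in the annotation used here. PRRG4 (chr11:32829677-32829926), SERPINB5 (chr18:63476708-63476957) and TBC1D8B (chrX:106802423-106802672) hold the E-box, as CAGGTG where it lies on the other strand, and SERPINB5 also holds the AP-1 letters. PRSS56 (chr2:232520138-232520387) holds the TCF core and, as CATTCC on the other strand, the TEAD core. All 4 genes lie on the plus strand.
PRRG4: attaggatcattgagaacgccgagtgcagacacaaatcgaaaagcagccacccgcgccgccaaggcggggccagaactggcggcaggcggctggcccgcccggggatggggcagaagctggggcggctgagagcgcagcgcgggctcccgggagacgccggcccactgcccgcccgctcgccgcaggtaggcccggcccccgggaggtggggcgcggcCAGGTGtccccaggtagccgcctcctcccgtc
SERPINB5: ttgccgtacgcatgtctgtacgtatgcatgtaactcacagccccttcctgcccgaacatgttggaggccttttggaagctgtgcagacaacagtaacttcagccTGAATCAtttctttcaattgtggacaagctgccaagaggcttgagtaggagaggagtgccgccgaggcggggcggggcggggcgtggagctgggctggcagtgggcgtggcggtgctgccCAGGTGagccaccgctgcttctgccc
TBC1D8B: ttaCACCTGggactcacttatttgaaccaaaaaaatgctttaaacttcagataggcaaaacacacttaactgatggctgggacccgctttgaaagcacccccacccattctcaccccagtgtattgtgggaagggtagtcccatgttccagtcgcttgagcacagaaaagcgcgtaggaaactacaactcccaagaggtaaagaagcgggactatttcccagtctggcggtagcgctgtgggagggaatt
PRSS56: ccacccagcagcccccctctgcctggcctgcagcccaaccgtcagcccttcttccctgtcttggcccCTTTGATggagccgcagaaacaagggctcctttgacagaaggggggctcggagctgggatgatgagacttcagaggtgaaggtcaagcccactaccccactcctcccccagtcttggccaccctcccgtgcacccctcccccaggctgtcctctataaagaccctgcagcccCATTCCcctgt

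The members were scattered over the genome. They lay on 16 chromosomes, and of 52 nearest genes of at least 1 RPM beside them, only a single pair was itself made of members, MGAM2 and PRSS2 on chromosome 7, 538 kb apart. Counting that pair from both sides, 6 of the 52 neighbours differed by at least 1.5 times from every control line in both knockdown lines, in the member's direction. Over all genes, 0.757% were higher and 0.66% lower by that limit. MGAM2 and PRSS2 pass this limit through the rule itself, so only the other neighbours can be set beside these shares. The 4 neighbours that are not members were REPS2 (1.80) beside NHS, PRKCH (1.75) overlapping TMEM30B, WFDC2 (1.70) beside EPPIN and KRTAP4-7 (1.68) beside KRTAP2-4. Reads of PRKCH and TMEM30B may have been shared. Only 1 of 14 gene lists held a member, LYZ among 14 measured genes of intestinal epithelial differentiation. None of 22 targets of YAP and TAZ, 24 Wnt feedback and beta-catenin targets, 19 genes of epithelial-to-mesenchymal transition or 41 cell adhesion molecules was a member, counts that say little where 0.193% of all genes are members. Of 21 gene families, 4 held members: the solute carriers (2 of 251 measured), the keratins (1 of 23), the SOX, FOX, GATA, KLF and POU factors (1 of 64) and the serpins (1 of 18).

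The knockdown lines were then compared with each other. The rule fixes a common direction and a minimum distance from the controls in both lines, but not how far apart the lines lie. The same knockdown samples chose the members, so the test below is not independent of that choice. The weaker line was shAjuba2 in 5 of the 7 members higher and in 17 of the 19 lower. These are the means that the rule used, and the share over all genes was not determined. The study reports more changed genes in shAjuba1 than in shAjuba2, so this order is not particular to the members. In the edgeR test, called at a Benjamini-Hochberg adjusted p under 0.05, 5 of the 24 members tested differed between shAjuba1 and shAjuba2, beside 19.6% of all 21600 genes tested (9.47% higher and 10.1% lower in shAjuba1), a share near that of genes in general. The genes tested were of any type, whereas the members are protein-coding. EPPIN and PRSS2 were too low to be tested. CALB2 was higher in shAjuba1, with a log2 fold change of 2.05 ± 0.18 (SE, n = 3 and 3, edgeR adjusted p = 0.000114). MAOA was lower there, by -1.19 ± 0.18 (edgeR adjusted p = 0.00199). KRT13 (-0.74 ± 0.13, edgeR adjusted p = 0.00405), MCTP2 (-0.79 ± 0.18, edgeR adjusted p = 0.0139) and TBC1D8B (-0.71 ± 0.18, edgeR adjusted p = 0.0203) were also lower in shAjuba1. In each of the 5, every shAjuba1 sample lay beyond every shAjuba2 sample. A call in this test makes such a separation likely, and its share over all genes was not determined. CALB2, KRT13 and MAOA were called whichever sample was left out, whereas without replicate 1 or 3 of shAjuba1, or without replicate 1 of shAjuba2, 3 members remained called. Without replicate 2 of both lines 7 were called, these 5 with MGAM2 and LYZ. For the remaining 19, the test found no difference at this threshold, which does not show that the lines act alike. AJUBA itself was lower in shAjuba1 by -0.26 ± 0.12 (edgeR adjusted p = 0.141).

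**Figure D2:**
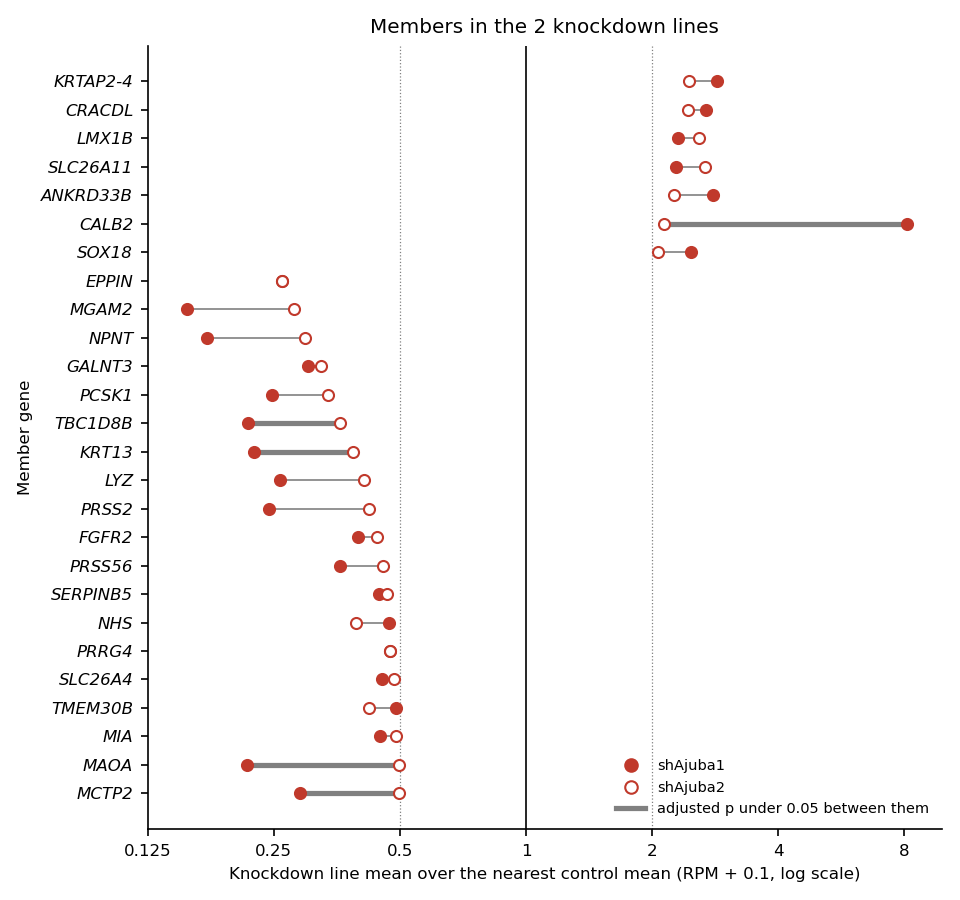
Each row is a member. Filled points are the shAjuba1 mean and open points the shAjuba2 mean, each divided by the nearest control mean (RPM + 0.1, log scale), dotted lines mark 2 and 0.5, and thick bars join the lines where their difference passed the edgeR test. CALB2 spans 2.14 to 8.12, whereas EPPIN and PRRG4 have nearly the same value in both lines.

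Ajuba OE was next compared with its own control line. It did not enter the rule except through the level, but Control did, so these counts are not independent of the choice of members. Of the 25 members tested, 12 were called by the same edgeR test, beside 5.43% of all 21140 genes tested. PRSS2 is among the 12, and since its Ajuba OE mean of 4.90 RPM alone brought it to the level (its highest other line mean was 0.822), its rise was favoured by the choice of members. Without PRSS2, 11 of 24 were called. Of the 12, 9 were called on the side away from the knockdown lines, and 8 without PRSS2. Among the members lower in both knockdown lines, 7 of 19, and 6 of 18 without PRSS2, rose in Ajuba OE (2.39% of all genes rose) and 3 fell (3.03% of all genes fell). Among those higher in both knockdown lines, 2 of 6 tested fell and 0 rose, and 0 of the 6 were higher at an unadjusted p under 0.05. By DESeq2 and in each other setting tried, 0 rose as well. The number that fell varied, from 1 of 6 without replicate 3 of Control to 4 of 7 in a fit of all 16 samples, with 3 of 7 by DESeq2. The median log2 fold change was 0.40 over the 19 lower members (0.31 without PRSS2), -0.85 over the 6 higher members and -0.015 over all genes.

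NPNT rose in Ajuba OE, from 2.21, 2.12 and 2.28 RPM in Control to 8.05, 7.69 and 7.82. Its log2 fold change was 1.90 ± 0.12 (SE, n = 3 and 3, edgeR adjusted p = 0.000211). PRSS2, a member only through these Ajuba OE values, went from 0.408, 0.306 and 0.387 RPM to 6.64, 2.96 and 5.10, a log2 fold change of 3.81 ± 0.34 (edgeR adjusted p = 0.00105). PRSS56 rose from 4.95, 5.61 and 5.71 RPM to 15.3, 12.9 and 12.9, with a log2 fold change of 1.40 ± 0.12 (edgeR adjusted p = 0.000777). Of the 18 lower members without PRSS2, NPNT and PRSS56 were the 2 whose Ajuba OE mean was at least 2 times the highest control mean, beside 0.378% of all genes. In both, every Ajuba OE sample lay above all 7 control samples.

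GALNT3 rose from 2.21, 1.73 and 1.78 RPM to 3.96, 3.13 and 3.82, by 1.00 ± 0.17 on the log2 scale (edgeR adjusted p = 0.0146). PCSK1 rose from 3.61, 2.92 and 3.76 RPM to 6.4, 5.50 and 6.59, by 0.91 ± 0.15 (edgeR adjusted p = 0.0134). The changes of TBC1D8B (0.58 ± 0.13, edgeR adjusted p = 0.0496) and NHS (0.45 ± 0.10, edgeR adjusted p = 0.0394) were smaller. Of the 6 fits that left out a single sample, the call held in 3 for PCSK1 and in 2 for GALNT3. It held in 1 for TBC1D8B and in 0 for NHS. None of these genes was called against all 3 control lines. MCTP2, TMEM30B and PRRG4 also had all 3, or 2 of 3, Ajuba OE samples above all 7 control samples, but with log2 fold changes of 0.40 to 0.52 they did not pass the test. In all, 9 of the 19 lower members had every Ajuba OE sample above all 3 Control samples, beside 10.4% of all genes, and 8 had them above all 7 control samples, beside 4.74% (8 and 7 of 18 without PRSS2). On the other side, 6 had them below all 3 Control samples, beside 16.5%, and 4 below all 7 control samples, beside 10.7%. By line means, 13 of the 19 lay above the highest control mean (12 of 18 without PRSS2), beside 18.5% of all genes, and 5 lay below the lowest, beside 33.7%.

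**Figure D3:**
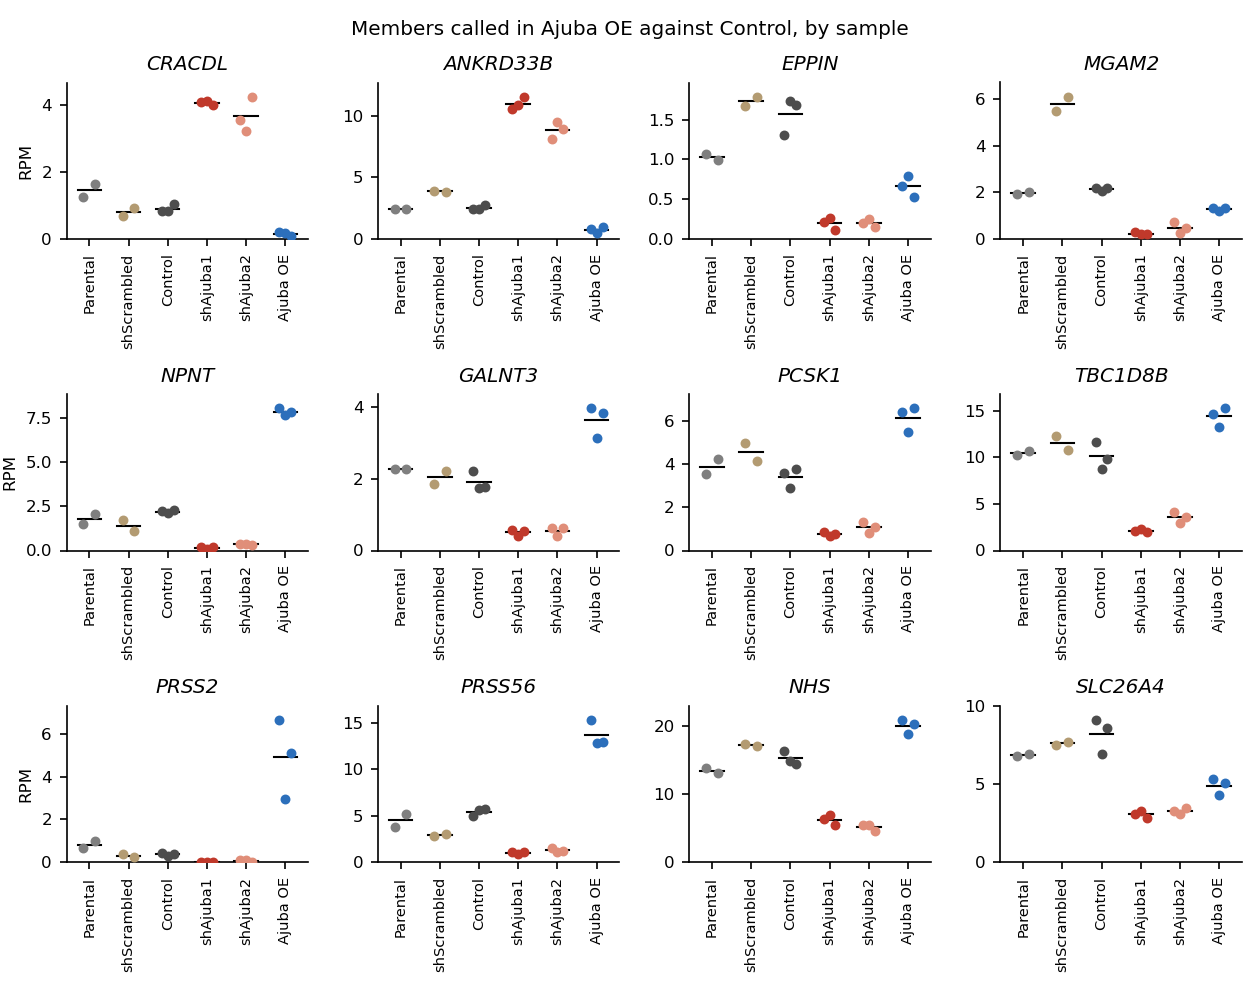
RPM of the 12 members called in Ajuba OE against Control, in every sample (points) with the line mean (bar) on axes from 0. NPNT, PRSS2 and PRSS56 show the Ajuba OE samples far above all others, CRACDL and ANKRD33B show them lowest, and EPPIN, MGAM2 and SLC26A4 show them between the control and knockdown samples.

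Of the members higher in both knockdown lines, CRACDL fell in Ajuba OE, from 0.845, 0.816 and 1.02 RPM in Control to 0.201, 0.188 and 0.0754. Its log2 fold change was -2.39 ± 0.33 (edgeR adjusted p = 0.00651). ANKRD33B fell from 2.39, 2.47 and 2.73 RPM to 0.789, 0.458 and 0.981, by -1.71 ± 0.25 on the log2 scale (edgeR adjusted p = 0.00911). SLC26A11 was at 0.258, 0.583 and 0.402 RPM against 0.816, 1.26 and 1.21 (-1.37 ± 0.35), but did not pass the test (edgeR adjusted p = 0.0700). These 3 had an Ajuba OE mean at most 1/2 of the lowest control mean, beside 1.80% of all genes. KRTAP2-4 was too low to be tested, with 0.0431, 0.0833 and 0.0754 RPM in Ajuba OE against 0.233, 0.204 and 0.319 in Control. In these 4 genes every Ajuba OE sample lay below all 7 control samples, beside 10.7% of all genes.

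Other members lay on the same side in Ajuba OE as in the knockdown lines. EPPIN fell in Ajuba OE as well, from 1.31, 1.73 and 1.68 RPM in Control to 0.660, 0.792 and 0.528 (-1.19 ± 0.23, edgeR adjusted p = 0.0253). So did SLC26A4, from 9.12, 6.94 and 8.58 RPM to 5.31, 4.33 and 5.08 (-0.68 ± 0.15, edgeR adjusted p = 0.0402), and MGAM2, from 2.18, 2.04 and 2.16 RPM to 1.33, 1.19 and 1.31 (-0.67 ± 0.15, edgeR adjusted p = 0.0467). Of the 6 fits that left out a sample, the call held in 2 for EPPIN, in 1 for SLC26A4 and in 0 for MGAM2. For MGAM2, 13 of 16 alternatives did not call it. None of these genes was called against all 3 control lines. MAOA had the same direction without passing the test (-0.49 ± 0.17, edgeR adjusted p = 0.178), with all 3 Ajuba OE samples below all 7 control samples. For these 4 genes the control lines were thus the highest of the 3 states.

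KRT13, the member with the highest level, was at 221, 191 and 223 RPM in Ajuba OE, within the range of the control lines. These values lay below all Control samples (265, 280 and 288) and above both shScrambled samples (167 and 178), and the gene did not pass the test. CALB2 was at 0.545, 0.479 and 0.453 RPM and SOX18 at 0.646, 0.583 and 0.402, both near Control. LYZ was at 4.16, 1.96 and 3.80 RPM against 4.02, 1.69 and 3.28, with replicate 2 lowest in both lines. LMX1B (log2 fold change -0.32 ± 0.27), FGFR2 (-0.18 ± 0.11), SERPINB5 (0.23 ± 0.28) and MIA (0.20 ± 0.17) also did not pass the test.

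**Figure D4:**
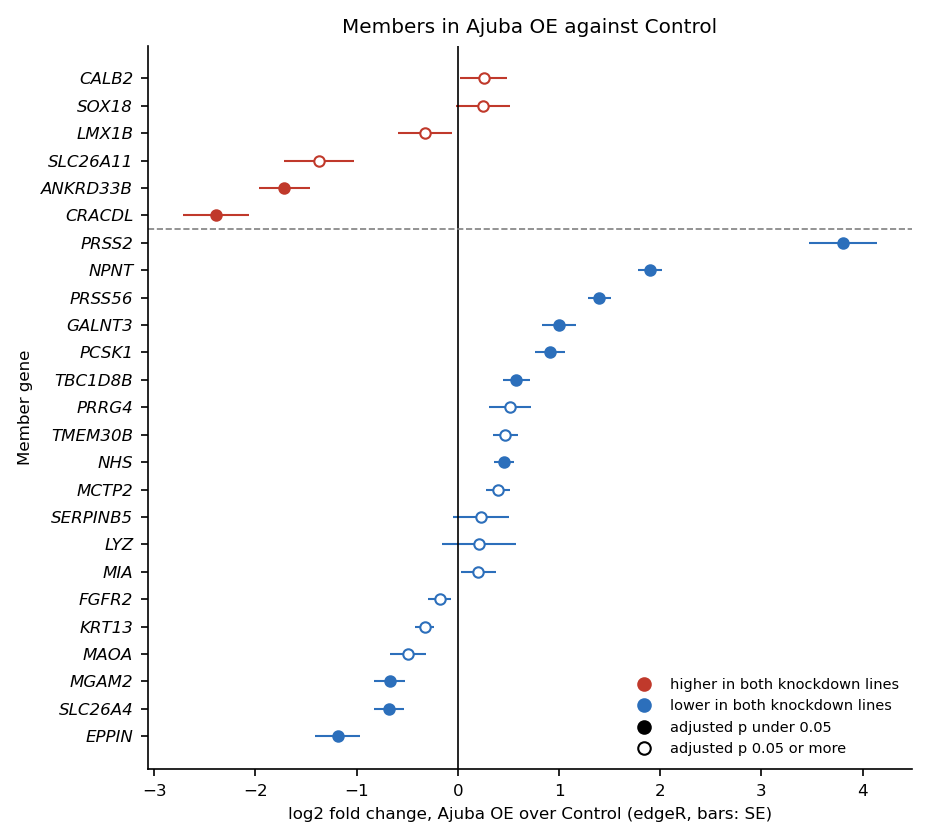
log2 fold change of Ajuba OE over Control for the 25 members tested, with bars for the standard error of edgeR. Members higher in both knockdown lines (red) are above the dashed line and members lower in both (blue) below it, and filled points passed the test. CRACDL and ANKRD33B are the filled red points at -2.39 and -1.71, and 7 filled blue points lie above 0 and 3 below it.

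The calls in Ajuba OE depended on the control line and on single samples. Of the 12, 5 were called in the same direction against Parental and against shScrambled too: NPNT, PRSS2, PRSS56, CRACDL and ANKRD33B, all on the side away from the knockdown lines, with PRSS2 chosen in part on Ajuba OE. Of these 5, all but ANKRD33B, lost without replicate 3 of Control, were also called whichever sample was left out. The number called was 9, 7 and 4 without replicate 1, 2 and 3 of Control, and 5, 10 and 5 without replicate 1, 2 and 3 of Ajuba OE. Without replicate 2 of both lines 15 members were called, 11 of them among the 12. In simulated counts with 3 samples a line, 53% of genes changed by 1 on the log2 scale were called, and 93% of those changed by 2. The changed genes were drawn from all genes tested, and the members had lower levels than most, so these shares may not hold for members.

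The limit of 2 cut through a continuous range. Just inside it were SOX18 (2.06 times), CALB2 (2.14) and ANKRD33B (2.25) among the members higher in both knockdown lines, and MCTP2 (2.01), MAOA (2.01) and MIA (2.04) among the lower. Just outside were TMEM132A (1.99), ADAMTS7 (1.98) and SCARF2 (1.98) on the higher side, and MBNL3 (1.99), ESRP1 (1.99) and AP1M2 (1.94) on the lower side. MBNL3 and ESRP1 are splicing factors, and AP1M2 is an adaptor of epithelial sorting. At a limit of 1.5 times 102 genes were higher and 89 lower, and at a limit of 3 none was higher and EPPIN, MGAM2, NPNT and GALNT3 were lower. Of the 26, 16 stayed members whichever of the 16 samples was left out. MGAM2 alone stayed in each of the 26 settings tried.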

How the data were processed

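Counts per gene were deposited as raw counts for 16 samples of 6 SW480 lines. Per the labels and methods, the authors made stranded mRNA libraries, aligned paired-end reads to hg38 with HISAT2 and counted exons by gene with featureCounts, with strand option, annotation release and versions not given in the sources used here. Of 66023 genes in the table, 56434 were found in GENCODE, which held 99.8% of counts, and 19575 were protein-coding. RPM was the count divided by the sample's total, times 1e6, and 0.1 was added before ratios. Ajuba OE was tested against Control, and shAjuba1 against shAjuba2, with edgeR 4.0.16 in R 4.3.3 (TMM, filterByExpr, quasi-likelihood test, Benjamini-Hochberg adjustment over all genes, called at an adjusted p under 0.05), and the standard error was the log2 fold change over the square root of F. The study used DESeq2, which is an alternative here (version 1.42.0). On simulated counts with 200 changed genes drawn from all genes tested, the test between the knockdown lines called 76% of genes changed by 1 on the log2 scale. It called 90% of those changed by 2. No count test was run on knockdown against control, which chose the members. The members and gene lists were chosen with earlier results of these data known. All 26 members are named, relatives and neighbours were added after values were seen, and so was the alternative without replicate 2 of both lines.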

Additional observations from a re-analysis of the deposited data

Results flagged for a closer look

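In 5 members, the 2 knockdown lines differed from each other by edgeR's quasi-likelihood test. These are 5 of 24 members tested, a share near the 19.6% of all 21600 genes called in that test. The log2 fold change of shAjuba1 over shAjuba2 was 2.05 for CALB2, -1.19 for MAOA, -0.79 for MCTP2, -0.74 for KRT13 and -0.71 for TBC1D8B. In each, shAjuba1 lay further from the controls than shAjuba2, as it did in most members. The calls of CALB2, MAOA and KRT13 held whichever sample was left out. MCTP2 was not called without replicate 1 or 3 of shAjuba1 or replicate 1 of shAjuba2, and TBC1D8B was not called when any of the shAjuba1 samples was left out, or without replicate 1 of shAjuba2.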

How the results depend on the processing

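The number of members turned on the constant, the fold limit and the level. With a constant of 1, 1 gene was higher and 5 were lower, and when every knockdown sample had to pass every control sample by 2 times, 2 were higher and 7 lower. A fold limit of 1.5 gave 102 and 89, a limit of 3 gave 0 and 4, and a level of at least 5 left 3 higher. Leaving out each sample in turn gave 6 to 12 higher (12 without replicate 3 of shAjuba2) and 15 to 27 lower (27 without replicate 1 of shAjuba2). Where calls also needed a log2 fold change of 1 or more in size, 6 members were called in Ajuba OE and 2 between the knockdown lines. Leaving out each sample gave 4 to 10 and 3 to 8 calls. The median log2 fold change of the higher members in Ajuba OE was -1.33 with DESeq2, -1.35 with every gene that had a count, -1.37 in a fit of all 16 samples, and -1.48 to -0.72 without single samples; these settings also tested KRTAP2-4 or changed the samples.

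Signs turned only for values that did not pass the test. In Ajuba OE, CALB2 was at -0.17 against Parental and KRT13 at 0.37 against shScrambled, and LYZ spanned -0.078 to 0.48 without single samples. Between the knockdown lines, the same range was -0.12 to 0.53 for SOX18, -0.21 to 0.069 for GALNT3, -0.26 to 0.23 for FGFR2, -0.14 to 0.072 for SERPINB5, -0.14 to 0.17 for PRRG4, -0.090 to 0.015 for SLC26A4 and -0.17 to 0.016 for MIA. PRRG4 was at -0.0070 with library size alone and at -0.18 without replicate 2 of both lines. The cause was not tested. Scaling by library size alone split the Ajuba OE calls over all genes into 360 higher and 748 lower, against 506 and 641.

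With the replicate number as a block, 18 members were called in Ajuba OE and 4 between the knockdown lines, and over all genes 5140 and 2937 were called. The pairing is not given by the labels, and the correlation of same-numbered deviations was 0.163, 0.616 and -0.0474 for Ajuba OE and Control and 0.0410, -0.0516 and -0.0469 for the knockdown lines. Not every pair was above 0.1, so the numbers were not taken as a pairing, although replicate 2 of Ajuba OE and of Control deviated together.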
